A study of Mus musculus with 12 samples.

Results

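The genes described here encode the proteins of the cytosolic ribosome. They were chosen by symbol, as Rpl or Rps with a number and at most letters after it, with Rplp0, Rplp1, Rplp2 and Rpsa added. The kinases of the Rps6k family stayed out, and so did Rps4l, which RefSeq annotates as a transcribed pseudogene. The array carries probes for 59 such genes, and 53 of them, 32 of the large and 21 of the small subunit, had a probe detected at p under 0.01 on at least 6 of the 12 arrays. They are 53 of 9843 genes tested. The 6 that did not pass were Rpl6, Rpl14, Rpl17, Rpl39l, Rps20 and Rps23, each with 1 probe that was detected on 0 arrays. Just inside the limit was Rpsa, detected on 8 arrays, while the other 52 genes were detected on all 12.

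The ribosome joins a small subunit, which reads the mRNA, to a large subunit, which forms peptide bonds. Its proteins are made in nearly equal amounts, and their mRNAs begin with a C followed by a run of pyrimidines, the 5′ terminal oligopyrimidine (TOP) tract, through which the growth kinase TOR controls their translation with the binding protein Larp1. Ribosome supply limits how much protein a heart muscle cell can make when it grows. TOR acts mostly on the translation of these mRNAs, which an expression array does not measure.

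Total RNA of whole hearts was measured on Illumina mouse beadchips, in which biotin-labelled copies of the RNA bind to 1 bead type per probe. The mice were C57Bl/6 males aged 8 weeks. Of the 12 samples, 6 came from exercised mice after 7 days of voluntary wheel running and 6 from sedentary mice at the same day. No transgene or other treatment is named for either group, and the labels number the replicates with no statement on which animal each came from, so that the p-values cover only the spread among the 12 samples. In bulk samples, fewer cells of a type and less RNA per cell cannot be told apart. The comparison asks how a week of wheel access changed heart transcripts.

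Values are log2 intensities after background correction and quantile normalization between arrays, and a difference is exercised minus sedentary on that scale. Levels of different probes are not set against each other. Between 16619 and 18708 probes were detected per array, and the number of arrays limits the precision. The raw signal fell into 2 ranges. Its 5th percentile was over 75 on 4 arrays (exercised 2, 3 and 6 and sedentary 2; the high background range) and under it on the other 8 (the low range), which hold 3 exercised and 5 sedentary arrays. Cardiomyocyte markers, 11 measured of 12, had means of 13.97 to 14.08 in exercised and 13.91 to 14.05 in sedentary hearts. Hepatocyte markers, 14 measured of 16, had a summed linear signal of 2254 to 176820 in exercised and 1715 to 6426 in sedentary hearts; the highest means were on exercised arrays 1, 5 and 6, and Alb and Fgb did not pass the detection limit. Macrophage markers summed to 6233 to 7056 in exercised and 8004 to 10742 in sedentary hearts (13 measured), and endothelial markers to 15221 to 16448 and 18005 to 24917 (11 measured). Smooth muscle markers, 6 measured of 7, summed to 20188 to 24243 in exercised and 24363 to 34227 in sedentary hearts. The sums of these 3 lists did not overlap between the groups. In limma, 2 macrophage, 1 endothelial and 1 smooth muscle gene passed the threshold, against 0.183% of all genes. The separation depended on the measure. As means of log2 values, the macrophage markers overlapped between the groups, and the smooth muscle markers were separated only narrowly. Sums of fibroblast, lymphocyte, red cell, atrial, adipocyte and skeletal muscle markers overlapped between the groups, and no gene of these lists passed. Measured in these lists, in that order, were 8 of 9, 1 of 11, 5 of 8, 5 of 6, 2 of 7 and 4 of 9 genes. The lymphocyte value is thus that of 1 gene. The part of any of these cell types in the differences below was not tested. With the hepatocyte mean as a covariate, the median difference of the ribosomal protein genes was -0.31, with 50 of 53 below 0.

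Since the TOP tract lies at the start of the mRNA, sequences around the start of each gene were taken from RefSeq for GRCm38.p6, where 45 of the 53 genes had an entry. A tract was searched on the gene's own strand as a C followed by at least 5 bases that are each C or T, beginning within 10 bases of the RefSeq start. A run that began further upstream was counted from its first C within those 10 bases. A gene with several RefSeq starts counted if any of them had a tract. This definition was chosen after seeing the sequences. A tract was present at 24 of the 45 genes (53.3%) and at 5910 of 27025 genes in the table (21.9%). The windows below run from 10 bases before the start to 20 from it, with the tract in capitals. The genes with a tract are shown because they are near the group's mean profile, differed much between arrays or belong to the stalk, the reference genes or the S6 kinase pathway: Rpl35 (chr2:39005112-39005141, minus strand), Rpl7a (chr2:26910797-26910826, plus strand), Rps26 (chr10:128626487-128626516, minus strand), Rps10 (chr17:27635225-27635254, minus strand), Rplp2 (chr7:141447641-141447670, plus strand), Rpl13a (chr7:45128726-45128755, minus strand) and Rps6 (chr4:86857348-86857377, minus strand). The genes without one are Rpl26 (chr11:68901556-68901585, plus strand) and Rps7 (chr12:28635934-28635963, minus strand), whose groups did not overlap, Rpl24 (chr16:55966265-55966294, plus strand), whose level differed most between the ranges, and Rps4x (chrX:102189372-102189401, minus strand), the gene that was higher in the high range.
Rpl35: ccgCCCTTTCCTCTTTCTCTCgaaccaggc
Rpl7a: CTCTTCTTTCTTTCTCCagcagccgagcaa
Rps26: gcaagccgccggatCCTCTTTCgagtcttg
Rps10: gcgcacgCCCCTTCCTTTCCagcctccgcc
Rplp2: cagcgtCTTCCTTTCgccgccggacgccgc
Rpl13a: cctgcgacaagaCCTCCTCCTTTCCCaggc
Rps6: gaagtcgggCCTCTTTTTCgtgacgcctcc
Rpl26: ggcaacttacagaaccggaagtcgcgtgta
Rps7: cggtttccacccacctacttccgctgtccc
Rpl24: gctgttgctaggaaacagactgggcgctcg
Rps4x: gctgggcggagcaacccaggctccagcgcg

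In these windows the tract of Rpl35 was 18 bases long, that of Rpl7a 17, and those of Rps26 and Rplp2 8 and 9. The absence of a tract says only that these letters are not within 10 bases of this annotated start. Other motifs were searched over the whole of each promoter entry, on both strands. The core CGGAAG of sites for ETS factors was found at 33 of the 45 genes (73.3%) and at 18.8% of all genes. The E-box CACGTG was found at 5 (11.1%, against 8.09%) and the TATA box letters TATAAA at 5 (11.1%, against 15.7%).

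With quantile normalization, most ribosomal protein genes were lower in exercised hearts by a small amount, where scaling arrays to a common median left 27 of 53 below 0, and no single gene passed the test. With quantile normalization the difference was below 0 for 51 of the 53 genes, against 56.6% of all genes, with a median of -0.25, which puts the exercised level at 84.3% of the sedentary one. The median over all 9843 genes was -0.035. At an adjusted p under 0.05 in limma, 0 of the 53 genes were called, where 18 of all genes were (0.183%); the smallest adjusted p was 0.14, for Rpl26. At an unadjusted p under 0.05, 9 genes were lower (10.6% of all genes were) and 0 were higher (5.29%). The large subunit had a median of -0.27, with 31 of 32 genes below 0, and the small subunit a median of -0.21, with 20 of 21.

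The scale of the array decides where 0 lies. When arrays were set to a common median instead of being quantile normalized, the median of all genes was 0.26 and that of the 53 genes was -0.00054. Relative to the median of all genes, the value was -0.26 with that scaling and -0.21 with quantile normalization, and 51 and 50 of the 53 genes lay below the all-gene median. With the background range as a term in the fit (a block), this relative value was -0.094, and without exercised array 3 it was -0.12. With median scaling, the large and small subunits had medians of -0.0099 and 0.0022. Other values below are on the quantile-normalized scale.

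**Figure D1:**
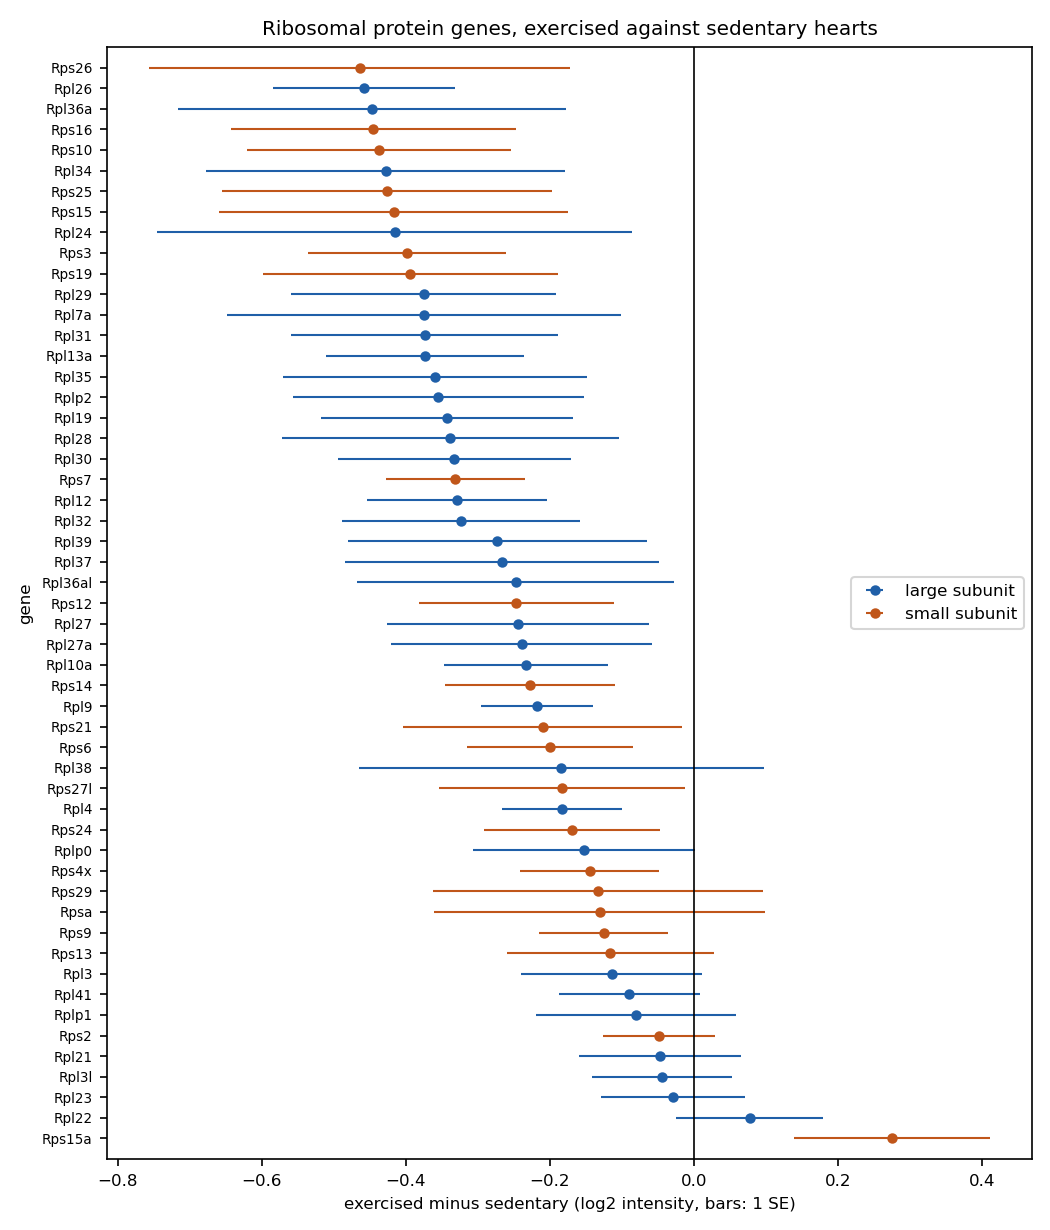
Difference between exercised and sedentary hearts for each of the 53 ribosomal protein genes, on the horizontal axis in log2 intensity with bars of 1 SE (n = 6 arrays per group), coloured by subunit and ordered by size. All but Rpl22 and Rps15a lie left of 0, between -0.46 and -0.029, on the quantile-normalized scale; with arrays scaled to a common median 27 of 53 do.

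The mean over the 53 genes gives the same picture by array. It was 11.73, 12.29 and 12.45 (lowest, median and highest) in exercised and 12.13, 12.53 and 12.64 in sedentary hearts, with means of 12.19 ± 0.30 and 12.43 ± 0.21 (SD, n = 6). The groups overlapped. The low exercised values came from the 3 arrays of the high background range, at 12.16, 11.73 and 11.95 for exercised 2, 3 and 6, while exercised 1, 4 and 5 were at 12.41, 12.45 and 12.41. Among sedentary arrays, array 2, the only one of the high range, was lowest at 12.13, array 1 of the low range followed at 12.21, and the other 4 were at 12.51 to 12.64. Exercised array 3 was the lowest array for 38 of the 53 genes and sedentary array 3 the highest for 27. Without exercised array 3, the difference was over 1.5 times smaller or of the other sign for 16 of the 31 genes that a rule chose for description one by one, among them Rpl31 at -0.18.

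**Figure D2:**
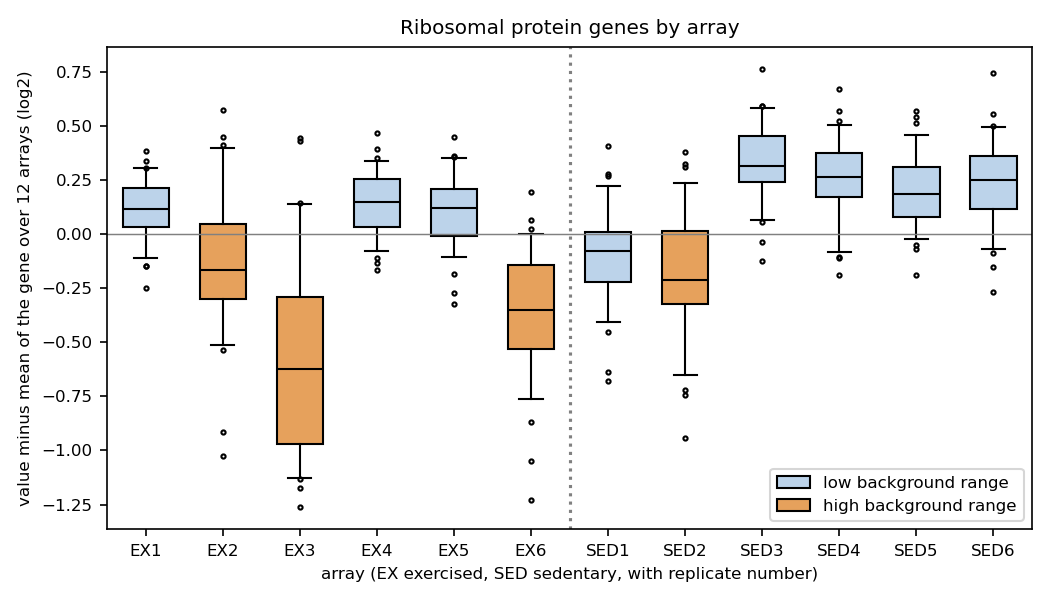
Spread of the 53 ribosomal protein genes on each array, as the value minus the gene's mean over the 12 arrays (log2), with boxes for the quartiles, whiskers to the 5th and 95th percentile and colour for the background range. The 4 arrays of the high range have medians below 0, down to -0.62 on exercised array 3, and of the 8 arrays of the low range only sedentary array 1 has one, at -0.076.

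The groups did not overlap for 2 of the 53 genes, where 0.782% of all genes lay lower on every exercised array and 0.335% higher. Rpl26, a large-subunit protein that in human cells also binds the mRNA of the tumour suppressor p53, was at 11.60, 12.31 and 12.44 in exercised hearts and 12.50, 12.66 and 12.79 in sedentary ones (lowest, median, highest). All 6 exercised arrays lay below the lowest sedentary one, and exercised array 3 lay furthest. The difference was -0.46 (SE 0.13, adjusted p = 0.14) in limma and -0.37 with the background range as a block. Rps7, a small-subunit protein that binds the p53 regulator Mdm2, was at 12.67, 13.19 and 13.29 in exercised hearts and 13.37, 13.45 and 13.52 in sedentary ones. All 6 exercised arrays were again the lower ones, with a difference of -0.33 (SE 0.097, adjusted p = 0.163) in limma and -0.27 with the block. With array weights in the limma fit, which give less weight to arrays that deviate, both genes passed the threshold. Rpl26 was at -0.39 (adjusted p = 0.0268) and Rps7 at -0.28 (adjusted p = 0.0383) in that limma fit. They were the 2 of the 53 genes called there, where 533 of all 9843 genes were called, these 2 included.

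The stalk of the large subunit, built of Rplp0, Rplp1 and Rplp2, recruits the factors that drive elongation. Rplp2 was at 12.74, 13.73 and 13.95 in exercised hearts and 13.49, 14.03 and 14.21 in sedentary ones. Its groups overlapped, and the difference was -0.35 (SE 0.20, adjusted p = 0.388) in limma. Rplp1 was at 14.21, 14.70 and 14.96 in exercised hearts and 14.36, 14.85 and 14.94 in sedentary ones, again overlapping, with a difference of -0.080 (SE 0.14, adjusted p = 0.782) in limma. Rplp0, which anchors the other two and often serves as a reference gene, was at 7.15, 7.70 and 7.89 in exercised hearts and 7.41, 7.69 and 8.06 in sedentary ones and differed by -0.15 (SE 0.15, adjusted p = 0.61) in limma. The 95% interval of each stalk gene, which for Rplp2 ran from -0.79 to 0.077, held 0. The sign for Rplp0 and Rplp1 turned with the setting. Both were at 0.17 with median scaling, on low-range arrays they were at 0.012 and 0.13, and with the background range as a block Rplp1 was at 0.052.

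Other large-subunit genes with the most negative values had wide spreads. Rpl36a was at 10.80, 11.71 and 12.16 in exercised hearts and 11.26, 12.27 and 12.56 in sedentary ones. The groups overlapped, and the lowest exercised arrays lay below every sedentary one. Its difference was -0.45 (SE 0.27, adjusted p = 0.406) in limma. Rpl34 differed by -0.43 (SE 0.25), Rpl24 by -0.42 (SE 0.33), Rpl7a by -0.37 (SE 0.27) and Rpl31 by -0.37 (SE 0.19). Rpl24 forms a bridge between the subunits. The array values of Rpl24 and Rpl7a followed the background range, as given with that comparison. Rpl35, at the exit of the peptide tunnel, differed by -0.36 (SE 0.21) and Rpl39, inside that tunnel, by -0.27 (SE 0.21).

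Genes used as references are part of the group. Rpl13a, a reference gene whose protein also silences inflammatory mRNAs in human myeloid cells, was at 8.46, 8.93 and 9.21 in exercised hearts and 9.05, 9.27 and 9.48 in sedentary ones. The groups overlapped over a narrow stretch, between 9.05 and 9.21, and the difference was -0.37 (SE 0.14, adjusted p = 0.23) in limma. Rpl32, also used as a reference, differed by -0.32 (SE 0.17). Near 0 were Rpl23, which lies between the subunits, at -0.029 (SE 0.10) in the probe used and -0.19 (SE 0.11) and -0.21 (SE 0.095) in its other probes, and Rpl22, an RNA-binding protein needed by T lymphocytes in mice, at 0.077 (SE 0.10), with a 95% interval of -0.14 to 0.30.

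In the small subunit the most negative value was that of Rps26, which lies where the mRNA leaves the ribosome. Rps26 was at 11.05, 12.12 and 12.48 in exercised hearts and 11.43, 12.67 and 12.82 in sedentary ones. Its groups overlapped, since sedentary array 2 lay below 4 exercised arrays, and the difference was -0.46 (SE 0.29, adjusted p = 0.425) in limma. Rps16, whose tail touches the tRNA in the ribosome, was at 11.35, 12.31 and 12.62 in exercised hearts and 12.22, 12.73 and 12.87 in sedentary ones and differed by -0.45 (SE 0.20, adjusted p = 0.297) in limma. Rps10, which lies near the mRNA entry side, was at 11.62, 12.25 and 12.65 in exercised hearts and 12.19, 12.74 and 12.78 in sedentary ones, with overlapping groups, and differed by -0.44 (SE 0.18, adjusted p = 0.274) in limma. Rps3, a protein of the mRNA entry channel, differed by -0.40 (SE 0.14) in the probe used and by -0.57 (SE 0.17) in its other probe.

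Several small-subunit genes are lost or mutated in human anaemias. Rps19, the gene most often mutated in Diamond-Blackfan anaemia, was at 11.88, 12.85 and 13.10 in exercised hearts and 12.59, 13.17 and 13.36 in sedentary ones. The groups overlapped, and the difference was -0.39 (SE 0.20, adjusted p = 0.354) in limma. Rps14, reduced in the anaemia of the 5q deletion, was at 13.56, 14.05 and 14.16 in exercised hearts and 13.84, 14.20 and 14.37 in sedentary ones and differed by -0.23 (SE 0.12, adjusted p = 0.352) in limma. Rps29 was at 12.95, 14.12 and 14.53 in exercised hearts and 13.44, 14.28 and 14.41 in sedentary ones, with exercised array 3 and sedentary array 1 far below the rest of their groups, and differed by -0.13 (SE 0.23).

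Rps6, whose protein is the substrate by which the S6 kinases of the TOR pathway were named, was at 10.88, 11.06 and 11.39 in exercised hearts and 11.01, 11.33 and 11.52 in sedentary ones. The groups overlapped, with a difference of -0.20 (SE 0.11, adjusted p = 0.39) in limma and -0.27 with the range as a block. Rpsa, which also occurs as a laminin receptor, lay near the detection limit, at 4.73, 5.26 and 5.63 in exercised hearts and 4.63, 5.53 and 5.85 in sedentary ones, and differed by -0.13 (SE 0.23). Rps2 was at 14.61, 14.83 and 14.99 in exercised hearts and 14.77, 14.88 and 14.96 in sedentary ones and differed by -0.048 (SE 0.078). The only small-subunit gene above 0 was Rps15a, at 6.19, 6.25 and 6.85 in exercised hearts and 6.00, 6.16 and 6.28 in sedentary ones. Its high exercised values were those of arrays 2 and 3, both of the high background range. Its difference was 0.28 (SE 0.14, adjusted p = 0.33) in limma, with a 95% interval of -0.015 to 0.57, and 0.073 on low-range arrays alone. The raw signal of this probe was low, at 73.6 to 278.5, where array medians were 48.6 to 138.6.

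Paralogs were read from separate probes. Rpl3l, which replaces Rpl3 in the ribosomes of heart and skeletal muscle, was at 13.74, 14.10 and 14.25 in exercised hearts and 13.99, 14.08 and 14.23 in sedentary ones and differed by -0.044 (SE 0.097), and Rpl3 was at 12.63, 13.16 and 13.32 in exercised hearts and 12.93, 13.19 and 13.52 in sedentary ones and differed by -0.11 (SE 0.13). For both, the groups overlapped and the 95% interval held 0, from -0.25 to 0.16 for Rpl3l and -0.38 to 0.15 for Rpl3. Rpl36al, a paralog of Rpl36a, differed by -0.25 (SE 0.22), and exercised array 3 was at 10.78 against 11.90 on the next exercised array. Without that array the difference of Rpl36al was -0.019. Rps27l, a paralog of Rps27 that p53 induces, differed by -0.18 (SE 0.17) and by -0.049 without exercised array 3, and the X-linked Rps4x by -0.14 (SE 0.097). Near-identical copies can share signal on an array, so that the values of Rpl36a and Rpl36al may not be fully separate.

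Of the paralogs that the symbol rule leaves out, Rpl22l1, a paralog of Rpl22, had the largest difference, at -0.58 (SE 0.22, adjusted p = 0.243 in limma). It was -0.36 with the background range as a block, and between the ranges Rpl22l1 differed by -0.66 (adjusted p = 0.0122 in limma). Its exercised mean was 5.18 ± 0.39 and its sedentary mean 5.76 ± 0.44 (SD, n = 6). Rpl7l1 differed by -0.0044, Rsl24d1 by 0.098, Rsl1d1 by 0.062 and the pseudogene Rps4l by -0.082.

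For 14 of the 53 genes, other probes passed the detection limit as well, 19 in all. The sign of the difference was the same in 18 of them, and the largest gap to the probe used was 0.227. Between the background ranges, 15 of the 19 had the sign of the probe used, and their size varied. For Rpl38, Rps24, Rpl30 and Rps3, 1 other probe each was at -1.53, -0.87, -0.81 and -0.65. These lay further below 0 than the probes used, at -0.76, -0.44, -0.38 and -0.49, and the 4 were chosen after their values were seen. Rps24 had a further probe at -0.074, nearer to 0 than the probe used. For Rpl31, Rps12 and Rpl27a, among others, the other probes lay nearer to 0 or above it. In a fit over all passing probes, the probe of Rpl31 used here gave -0.37 between exercised and sedentary and -0.36 between the ranges, and its other probes gave -0.24 and -0.24 between exercised and sedentary and -0.021 and 0.13 between the ranges. Rps2 had a difference of -0.048 (SE 0.079) in the probe used and -0.28 (SE 0.069) in the other. Rps12 had -0.25 and -0.23 in its 2 probes, with -0.31 and 0.032 between the ranges, and Rpl27a had -0.24, -0.34 and -0.25 in its 3, with -0.63, -0.38 and -0.0093.

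The ribosomal protein genes followed the background range of the arrays. With the group in the fit, 33 of the 53 genes fell in the high range, against 20.0% of all genes. Of the 53, 1 rose, against 15.3% of all genes, both counts at an adjusted p under 0.05 in limma. Median scaling gave 1 lower and 28 higher of the 53, where 128 and 8310 of all 9843 genes were lower and higher. With quantile normalization, the median of the 53 genes was -0.42, a level of 74.9% of that on low-range arrays. The median over all genes was -0.056. Of all genes, 3474 (35.3%) differed between the ranges. Among the exercised arrays alone, 3 against 3, 22 of the 53 genes were lower (10.1% of all genes were) and 0 were higher, with a median of -0.48; 7.77% of all genes were higher, and at an unadjusted p under 0.05, 1 of the 53 was. With median scaling of all 12 arrays, the median range difference was 0.33 where all genes had 0.82, a relative value of -0.48. The 456 other genes in the top 5% by mean signal had a median of 0.030, with 100 higher and 73 lower.

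The largest values belonged to Rpl24, at -1.32 (SE 0.14, adjusted p = 4.05e-05) in limma. For Rpl24, the mean was 13.70 on the 3 exercised arrays of the low range and 12.42 on the 3 of the high range, against 13.71 on the 5 sedentary arrays of the low range and 12.33 on the 1 of the high range. All 4 arrays of the high range lay below all 8 of the low range. Rps26 differed by -1.10 (SE 0.16, adjusted p = 0.000274), Rpl7a by -1.05 (SE 0.14, adjusted p = 0.000167) and Rpl36a by -1.002 (SE 0.15, adjusted p = 0.000328), all in limma. For Rpl7a, the mean was 12.41 on the 3 exercised arrays of the low range and 11.40 on the 3 of the high range, against 12.47 on the 5 sedentary arrays of the low range and 11.35 on the 1 of the high range. Rpl36al differed by -0.016 and Rpl3l by -0.24. The gene that rose was Rps4x, by 0.28 (SE 0.076, adjusted p = 0.0114) in limma, and Rps6 differed by 0.23, Rpl22 by 0.20 and Rps15a by 0.19, none of which passed.

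**Figure D3:**
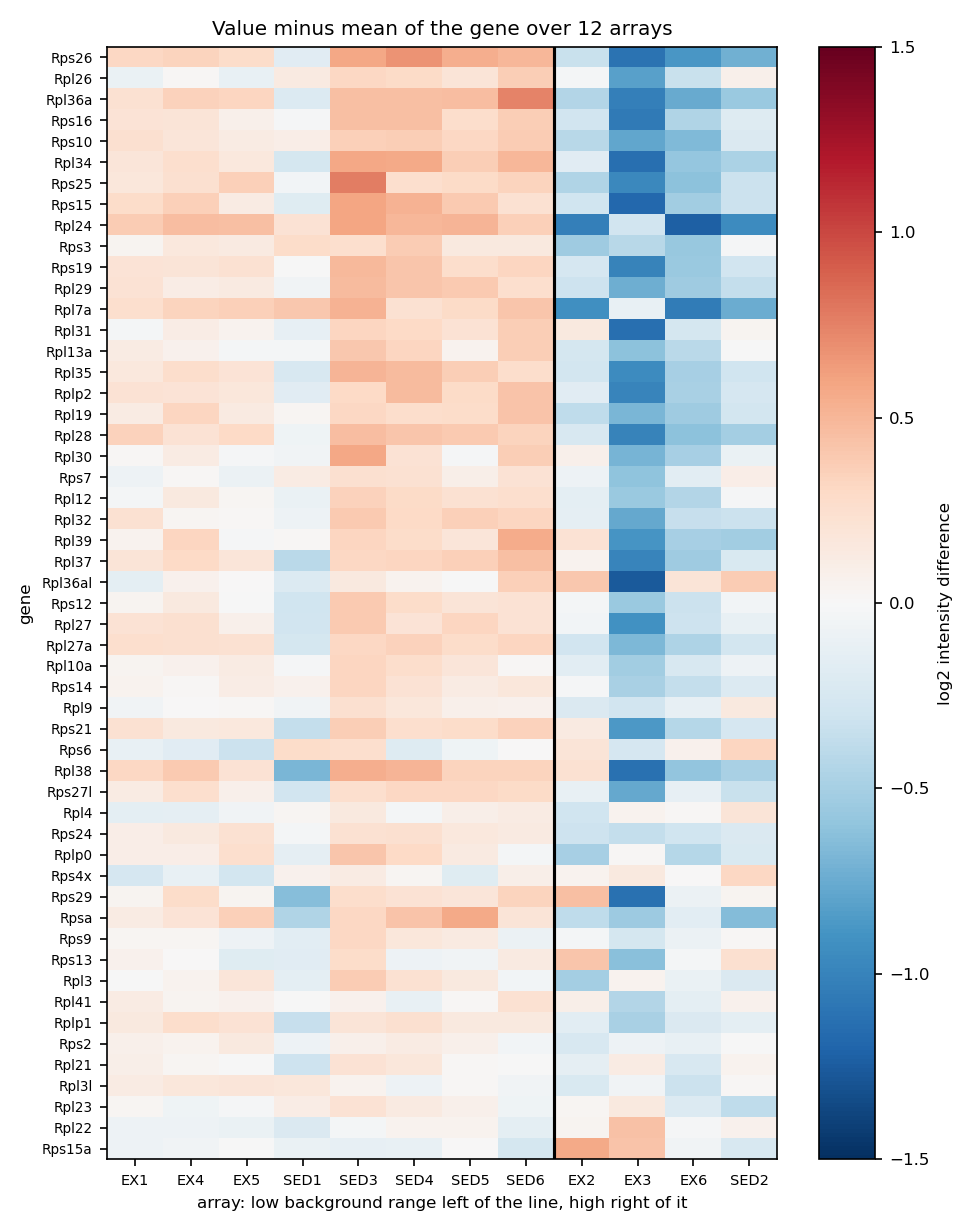
Value of each of the 53 ribosomal protein genes on each array minus the gene's mean over the 12 arrays (log2, colour from -1.5 to 1.5), with arrays of the low background range left of the line and genes ordered by their exercised minus sedentary difference. The right-hand block is mostly blue, deepest for exercised array 3, and Rpl24 and Rpl7a are instead lowest on exercised array 6.

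With the background range as a block, the exercise difference lay nearer to 0. The median over the 53 genes was -0.11, with 44 below 0 (54.8% of all genes were), and 0 were called where 36 of all genes were (0.366%); the smallest adjusted p was 0.159, and at an unadjusted p under 0.05, 10 were lower (8.79% of all genes) and 0 higher (4.48%). On the 8 arrays of the low range alone, the median was -0.068, with 39 below 0 (54.2% of all genes were) and 0 called, where 10 of all genes were (0.102%); at an unadjusted p under 0.05, 5 were lower (9.34%) and 0 higher (5.01%). On the 4 arrays of the high range, 3 exercised against 1 sedentary, the median was -0.24 with 44 below 0. Of all 9843 genes, 5156 were below 0 there, with a median of -0.014. With the block, 49 of the 53 differences moved nearer to 0, and Rpl24 went from -0.42 to 0.024. The genes furthest below 0 with the block were Rpl26 at -0.37, Rps6 at -0.27 and Rps7 at -0.27. The part of the background range in the exercise difference was not tested beyond these values.

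**Figure D4:**
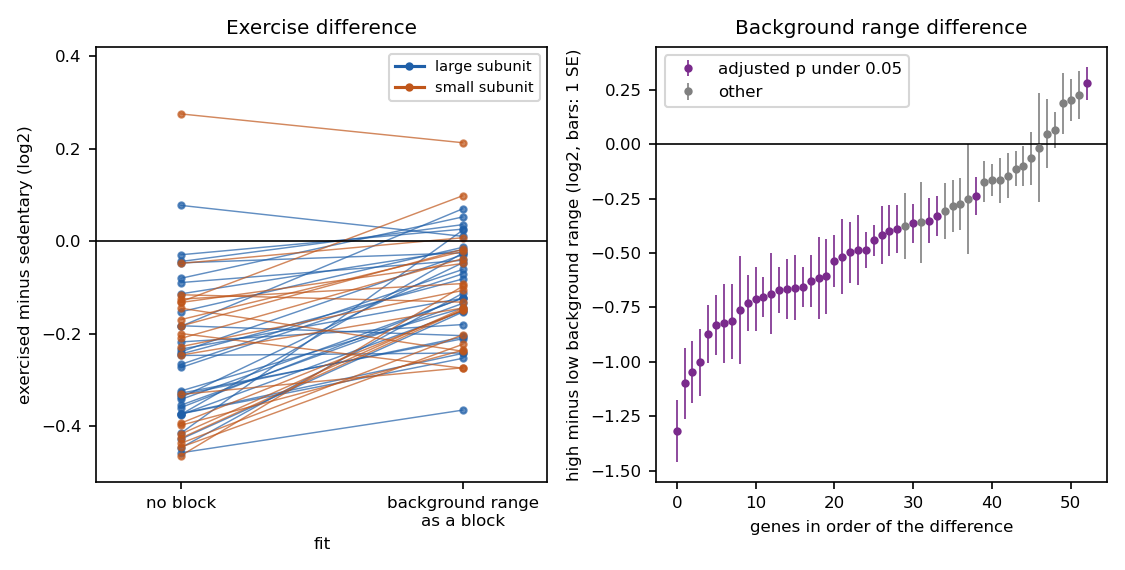
Left, the exercised minus sedentary difference of each ribosomal protein gene (log2) without and with the background range as a block, 1 line per gene coloured by subunit; 49 of 53 move nearer to 0. Right, the difference between high and low background range for the same genes in ascending order (log2, bars of 1 SE). The 33 that fell and the 1 that rose on the quantile-normalized scale are in purple. With median scaling 1 was lower and 28 higher, where 128 and 8310 of all 9843 genes were lower and higher.

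Values of the genes varied together from array to array. Over the 12 arrays, the median Pearson r between pairs of the 53 genes was 0.69, and over the 8 arrays of the low range it was 0.60. The arrays share their normalization and the range, and these correlations are a description. For comparison, the median over pairs was 0.31 and 0.14 for 73 mitochondrial ribosomal protein genes and 0.041 and 0.036 for the other top 5% of genes. For 11 core subunits of the proteasome it was 0.56 over the 12 arrays and -0.027 over the 8. Closest to the mean of the other members were Rpl35, Rpl34 and Rps19, at r of 0.99 each over 12 arrays. In all, 27 genes had an r over 0.9 and 4 a negative one, among them Rpl22 at -0.60, Rps15a at -0.54 and Rps4x at -0.37. On the low-range arrays Rpl22 was at 0.67, Rps4x at 0.22, Rps15a at -0.28 and Rpl3l at -0.69.

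By sequence, the 24 genes with a tract had a median exercise difference of -0.30 and a median range difference of -0.56, and 18 of them fell in the high range, where 20.0% of all genes did. The 21 genes without one were at -0.24 and -0.28, and 11 of them fell. The 8 genes with no promoter entry were at -0.18 and -0.37, and 4 of them fell. These values were not tested against each other. Among the genes printed above, Rpl35 with its tract of 18 bases fell by 0.71 in the high range and Rpl24, without a tract, differed by -1.32.

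Around the ribosome, 0 genes of any list passed the threshold for exercise in limma, where 0.183% of all genes did. The mitochondrial ribosomal protein genes, which serve the separate ribosomes of mitochondria, had a median of -0.14 over 73 genes, and of -0.025 with the range as a block. Of the 73, 55 were below 0, where 56.6% of all genes were. At an unadjusted p under 0.05, 9 were lower and 0 higher, where 10.6% and 5.29% of all genes were. Mrpl47, with the smallest p, differed by -0.46 (SE 0.12, adjusted p = 0.123 in limma), by -0.34 with the range as a block and by -0.36 between the ranges. Factors that build ribosomes in the nucleolus had a median of -0.0024 over 87 genes, with 2 lower and 7 higher at an unadjusted p under 0.05 (10.6% and 5.29% of all genes). Among them the assembly factor Rpf2 differed by -0.39 (SE 0.13) and Taf1a, a subunit of the factor that starts rRNA transcription, by 0.28 (SE 0.10).

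Translation factors lay around 0. Initiation factors had a median of 0.032 over 37 genes, with 0 lower and 4 higher at an unadjusted p under 0.05 (10.6% and 5.29% of all genes). Eif3c differed by 0.41 (SE 0.13, adjusted p = 0.181 in limma), by 0.28 with the range as a block and by 0.40 between the ranges. Elongation and termination factors had a median of -0.037 over 12 genes, with 1 lower and 0 higher at that p. The lower one, Eef1b2, an exchange factor for the elongation GTPase, differed by -0.32 (SE 0.12). It was at -0.21 with the range as a block and at -0.35 between the ranges. Other genes whose mRNAs carry a TOP tract had a median of -0.084 over 17 genes, with 2 lower (Eef1b2 and Tpt1) and 0 higher. Tpt1 differed by -0.50 (SE 0.20) and Pabpc1, which is not among the 2, by -0.35 (SE 0.17). The range difference of these 17 genes had a median of 0.14, with 6 higher and 5 lower, where 15.3% of all genes were higher and 20.0% lower. Tpt1 and Pabpc1 were among the lower ones, at -0.60 and -0.54 between the ranges. With the range as a block, their exercise differences were -0.31 and -0.17. Tpt1 had means of 6.02 in exercised and 6.53 in sedentary hearts.

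Upstream genes of the TOR pathway had a median of 0.050 over 34 genes, with 0 lower and 3 higher at an unadjusted p under 0.05 (10.6% and 5.29% of all genes). Tsc2, which restrains TOR, differed by 0.23 (SE 0.088, adjusted p = 0.25 in limma), and Sesn1, a sensor that restrains it as well, by 0.43 (SE 0.17). With the range as a block, Tsc2 was at 0.23 and Sesn1 at 0.26. Between the ranges Sesn1 differed by 0.49 (adjusted p = 0.0122 in limma). Factors that meet the nascent chain had a median of -0.042 over 25 genes, with 2 lower and 1 higher. Genes of the response to ribosomal stress through p53 had a median of 0.048 over 9 genes, with 1 lower (Phlda3) and 1 higher (Sesn1). Phlda3 differed by -0.33 (SE 0.13). Mdm2 was at 0.19 (SE 0.10) and Cdkn1a at -0.31 (SE 0.20), neither of them among the counted genes. Cytosolic aminoacyl-tRNA synthetases had a median of 0.042 over 19 genes, with 0 lower and 2 higher. Core subunits of the proteasome had a median of -0.13 over 11, with 1 lower and 0 higher, which was -0.060 with the range as a block.

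**Figure D5:**
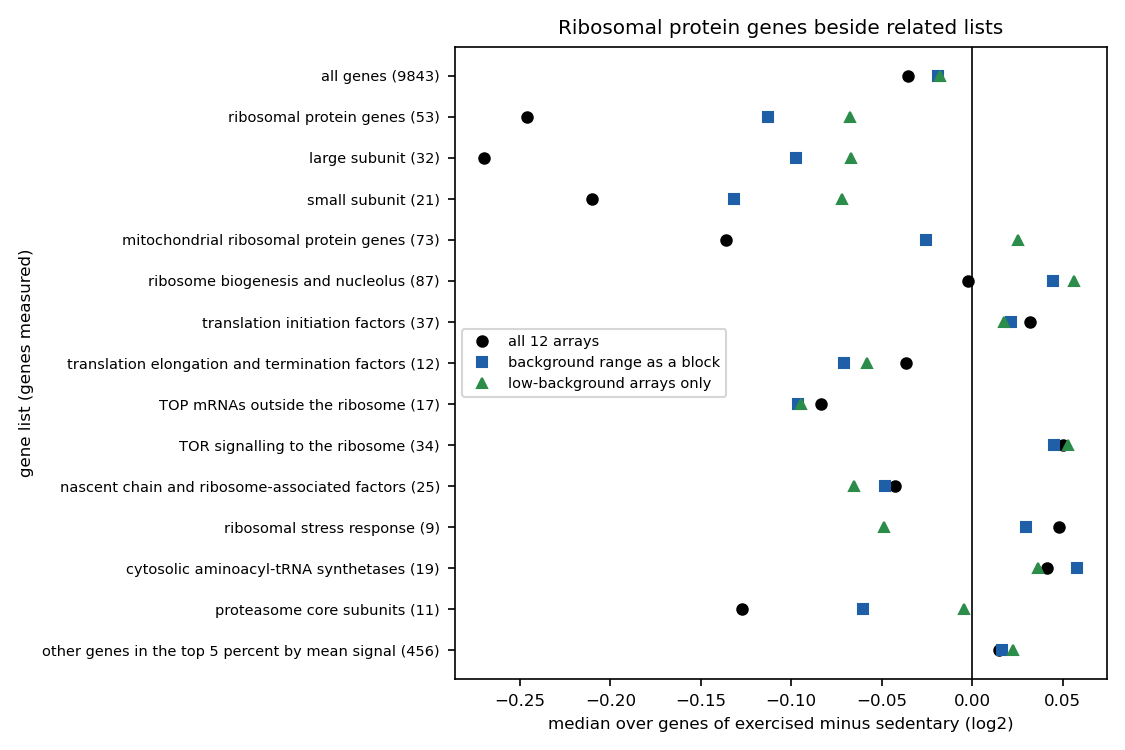
Median exercised minus sedentary difference (log2) of the ribosomal protein genes, of both subunits and of lists around them, with the number of measured genes in brackets, on all 12 arrays, with the background range as a block and on the 8 arrays of the low range. The ribosomal protein genes stand at -0.25, -0.11 and -0.068, and the lists of translation factors and TOR genes lie within 0.10 of 0 in all 3 fits.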

How the data were processed

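Total RNA of 12 hearts was hybridised to Illumina beadchips. The authors deposited the bead intensity of every probe on every array, which the file headers call non-normalized. Beside it stands the deposited detection p-value of that probe, per the file headers. A second deposited table holds the authors' processed values, near a log2 scale, and the submitters' processing notes name lumi. Within every array these values rank the probes as the intensity does. Their array medians were 6.98 on all arrays, and their slope against log2 intensity was 0.98 to 1.05 above 10 and 0.44 to 0.65 below 8. The sources used here do not give the transformation, so these values served only as an alternative.

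Intensities were background-corrected with neqc of limma, using the deposited detection p-values and an offset of 16, and quantile normalized. Detection at p under 0.01 was asked of 6 or more arrays, which 17098 of 45281 probes met. Names came from the platform annotation: 34885 probes had 1 symbol, 18 several and 10378 none, and a RefSeq table renamed 0. The probe with the highest mean stood for each of 9843 genes. The difference was fitted over all of them with limma 3.58.1 in R 4.3.3 (lmFit, eBayes with an intensity trend; Benjamini-Hochberg over all genes, threshold 0.05). The background range is high where the 5th percentile of the raw signal is over 75, and its difference was fitted with the group as a term. Slides and scan dates are not used here, as the labels and headers name none. Alternatives changed the background correction, the normalization, the detection filter or the probe rule, used the deposited values or array weights, added the range or hepatocyte markers as terms, blocked on replicate number or left out arrays.

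The members, the lists, the tests and the alternatives were chosen with earlier results of these data known. Named members, 31 in number, were those past the threshold, 18 measured genes of a panel of 26 (reference, stalk, stress, anaemia and paralog genes and Rps6), the 5 most negative and 3 most positive, those with 1 array far from its group, the lowest and highest by level and the 3 nearest to the mean profile. Members named outside that rule were chosen after their values were seen. For each list up to 4 genes of smallest p could be named. Lists were described by counts and medians, with no test of the list. The fit was tested on simulated data. Promoter sequences were those of RefSeq, build GRCm38.p6. Protein sequences were not used here.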

Additional observations from a re-analysis of the deposited data

Results flagged for a closer look

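In each group of 6 arrays, the lowest and the highest value of each ribosomal protein gene, and of the means over them, were set against the rest of the group with Dixon's criterion; 8 of 112 groups had an array that stood apart, and chance alone gives about 1 in 20, or 5.6. Exercised array 3 was lowest for Rpl31 (11.83), Rpl36al (10.78), Rps29 (12.95) and Rps7 (12.67), and highest for Rpl22 (10.83, with the next array at 10.43). Sedentary array 2, the only sedentary array of the high background range, was lowest for Rpl24 (12.33, with the next at 13.49) and Rpl7a (11.35, with the next at 12.33). Sedentary array 1 was lowest for Rps29 (13.44, with the next at 14.11). Without exercised array 3 the differences were -0.34 for Rpl26 and -0.24 for Rps7, the genes whose groups did not overlap.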

How the results depend on the processing

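The median of the 53 genes and those of both subunits kept their direction without exercised or sedentary replicates: leaving out each array gave -0.33 to -0.17 for all, -0.36 to -0.18 for the large and -0.28 to -0.16 for the small subunit, with 49 to 51 genes below 0 and 0 called. Relative to all genes this was -0.29 to -0.12, the smallest without exercised array 3. With array weights 2 genes were called, and with median scaling 27 were below 0. The all-gene count of 18 was 0 with median scaling (432 at an unadjusted p under 0.05) and on high-range arrays, 9 with cyclic loess, 1 with no filter on detection, with the hepatocyte covariate and without exercised arrays 1, 5 and 6, 533 with array weights, 36 with the range block, 10 on low-range arrays, 3 with the range block and hepatocyte covariate, and 1 to 236 leaving out each array (236 without sedentary array 2). Whether replicate numbers pair the samples is not stated by the labels. Deviations of same-numbered arrays correlated at -0.29 to 0.56, highest for replicate 2, whose arrays are both of the high range. These correlations cannot settle the pairing. With the number as a replicate block, 3 genes and 0 of the 53 were called. Beside the lower count of 33, median scaling gave 1 lower, 28 higher and a median of 0.33 between the ranges. Of all 9843 genes, 128 were lower and 8310 higher with that scaling. Within exercised arrays 0 of the 53 were higher. Leaving out each array gave 27 to 36 lower (27 without sedentary array 2), 0 to 3 higher (3 without exercised array 3) and a median of -0.48 to -0.36. List entries called were 5 with array weights and 0 to 2 leaving out each array (2 without sedentary array 2). Of all 53 genes, 24 turned sign with median scaling, 14 on low-range and 7 on high-range arrays, 7 with the range block, 9 with both terms and 3 with array weights, none called. Values for those among the 31 named genes follow. With array weights these were Rpl22 at -0.020 and Rpl3l at 0.084. With the range block they were Rpl23 (0.026), Rpl24 (0.024), Rpl3l (0.036), Rplp1 (0.052), Rps2 (0.0075) and Rpsa (0.098). With the hepatocyte covariate Rpl23 was at 0.022. With both terms they were Rpl23 (0.090), Rpl24 (0.18), Rpl39 (0.029), Rpl3l (0.091), Rpl7a (0.15), Rplp0 (0.0060) and Rplp1 (0.0041). On high-range arrays they were Rpl23 (0.38), Rpl24 (0.092), Rpl3 (0.025), Rpl39 (0.13), Rpl7a (0.054), Rps27l (0.0045) and Rpsa (0.29), and on low-range arrays Rpl22 (-0.021), Rpl3l (0.14), Rplp0 (0.012), Rplp1 (0.13), Rps2 (0.064), Rps29 (0.048) and Rpsa (0.021). With median scaling they were Rpl23 (0.22), Rpl3 (0.14), Rpl36al (0.049), Rpl3l (0.21), Rplp0 (0.17), Rplp1 (0.17), Rps14 (0.0022), Rps2 (0.20), Rps27l (0.077), Rps29 (0.14), Rps4x (0.092) and Rps6 (0.11). Without exercised arrays 1, 5 and 6 Rpl23 was at 0.019. Leaving out each array gave -0.0037 to 0.10 for Rpl22, -0.11 to 0.012 for Rpl23, -0.086 to 0.017 for Rpl3l, -0.16 to 0.0097 for Rplp1 and -0.27 to 0.079 for Rps29. The cause of these changes was not tested. The number of arrays limits what could be called: the SE of a single gene was 0.078 to 0.33.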
